A study of Mus musculus with 12 samples.

Results

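The response of mouse embryonic fibroblasts to 2 days of reprogramming factor induction was compared between cells depleted of the histone acetyltransferase Gcn5 and control cells. All groups were secondary 1B fibroblasts, a single line in which doxycycline (dox) switches on introduced reprogramming factors, per the labels. The comparison used 8 of 12 libraries in 4 groups of 2: siGcn5 (siRNA against Gcn5, gene Kat2a) with dox for 2 days, siGcn5 without dox, siControl (control siRNA) with dox for 2 days, and siControl without dox. The other 4 libraries, from cells given an siRNA against c-Myc (siMyc) with or without dox, entered the same fit. The quantity of interest was the interaction, which is the dox response in siGcn5 minus the dox response in siControl on the log2(RPKM + 1) scale. All 13175 genes that passed a filter on low values were tested, out of 23284 gene symbols. A positive interaction means a more positive dox response in siGcn5, which includes genes that dox lowered less.

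Gcn5 is the catalytic subunit that acetylates histones within the SAGA and ATAC coactivator complexes, which help transcription factors, Myc among them, to activate promoters. In the first days of reprogramming, induced factors silence the fibroblast program of matrix, adhesion and signalling genes, activate epithelial genes and raise genes for growth. An interaction on a log scale can come from a difference between siGcn5 and siControl that exists before dox, from one that appears with dox, or from both, so the siGcn5 effect is given below with and without dox.

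Recovered gene reads were 92.5 to 102 M per library in siGcn5 with dox, 86.4 to 124 M in siGcn5 without dox, 97.3 to 133 M in siControl with dox and 135 to 150 M in siControl without dox. Replicates correlated across genes at Spearman 0.990 in siGcn5 with dox, the lowest of the 4 groups, and at 0.997 in siControl without dox, the highest. Libraries are named below by siRNA, dox and replicate number, as in siGcn5 dox 1 and siControl no-dox 2. The labels do not say whether the 2 replicates of a group came from different cultures, and the p-values cover the spread between the libraries alone, which may be technical. The labels mention siRNA pools at 40 nM and individual siRNAs at 10 nM and tie neither to a library, so effects of an siRNA on other transcripts were not tested. In bulk RNA, fewer cells of a type and less RNA per cell cannot be told apart. Of 39 markers of blood, endothelial, neural, adipocyte and skeletal muscle cells, 14 passed the filter, and 24 stayed under 1 RPKM in all 8 libraries. The interaction was called for 7 of the 14 tested markers, against 25.9% of all tested genes. Of these calls 3 were positive (Emcn and Des among them) and 4 negative (Laptm5 and Nefl among them). The summed RPKM of the skeletal muscle markers was 86.4 to 111 in siGcn5 with dox and 116 to 133 in siGcn5 without dox, against 41.6 to 62.2 in siControl with dox and 98.1 to 125 in siControl without dox. That of the neural markers was 111 to 126 and 14.3 to 15.4 in siGcn5 with and without dox, against 156 to 164 and 22.4 to 23.5 in siControl with and without dox. Single genes carried most of both sums. Acta1 averaged 87.1 RPKM over the 8 libraries, and 6 of 8 muscle markers stayed under 1 RPKM in all 8. Tubb3 averaged 74.6 RPKM, and 5 of 7 neural markers stayed under 1 RPKM in all 8. The adipocyte markers summed to 28.7 to 29.4 and 38.9 to 48.7 in siGcn5 with and without dox, against 28.2 to 29.5 and 18.1 to 21.3 in siControl with and without dox. Endothelial and blood markers summed to at most 13.8 in any library. Their part in the results was not tested.

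The interaction passed the test for 3409 of 13175 genes, 25.9% (limma, Benjamini-Hochberg adjusted p under 0.05). It was positive for 1500 genes, 11.4% of those tested, and negative for 1909, 14.5%. The interaction was at 1 or more for 311 of the positive calls and at −1 or less for 90 of the negative calls. Positive calls made up 44.0% of all calls, against 57.0% after median-ratio scaling and 52.2% after quantile normalization, so which sign is more frequent depends on the scaling. It also depends on single libraries, since the more frequent sign changed without siGcn5 no-dox 1, siControl dox 1 or siControl no-dox 2. Leaving out siControl no-dox 2, siGcn5 no-dox 1, siControl dox 2, siControl no-dox 1 or siGcn5 dox 1 reduced the number of calls to 1677, 1734, 1769, 1917 and 2232, in that order. The positive calls at 1 or more numbered 473 without siGcn5 dox 2 and 201 without siControl dox 2, and the negative calls at −1 or less numbered 150 without siGcn5 dox 2.

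The dox response was smaller in siGcn5. The median absolute dox response over all tested genes was 0.32 log2 in siGcn5 and 0.50 log2 in siControl, and dox responses passed the test for 58.4% of genes in siGcn5 (36% higher, 22.4% lower) and 74% in siControl (46.1% higher, 27.9% lower). In siMyc the median absolute response was 0.24 log2, and 44.8% of genes passed. A smaller response than in siControl was thus not particular to siGcn5. Most interactions ran against the direction that dox took in siControl. Of the 1500 positive calls, 687 were lower with dox in both arms, 532 were lower with dox in siControl and not called in siGcn5, and 62 were higher with dox in siGcn5 and lower in siControl. Of the 1909 negative calls, 1081 were higher with dox in both arms, 624 were higher in siControl and not called in siGcn5, and 54 were lower in siGcn5 and higher in siControl. The share of positive calls that dox lowered in siControl was 85.4%, and stayed between 79.6% and 87.4% with any 1 of the 8 libraries left out. The share of negative calls that dox raised in siControl was 92.1%, and stayed between 88.9% and 94.9%. These shares use siControl on both sides of the comparison, since the siControl response is part of the interaction.

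**Figure D1:**
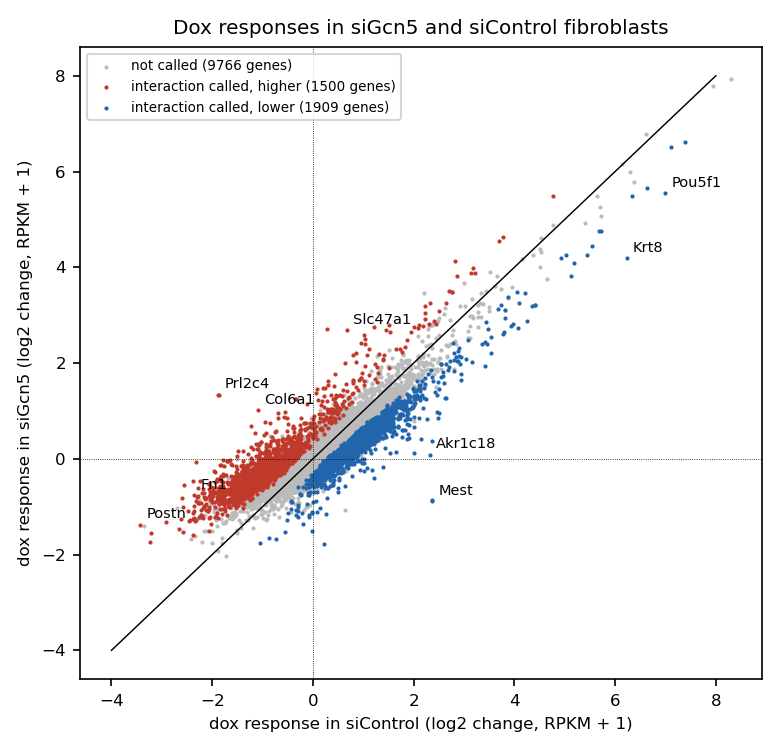
Each point is 1 of 13175 genes, with the log2 dox response in siControl on the x axis and in siGcn5 on the y axis; the line marks equal responses. The 1500 positive interactions (red) lie above the line mostly where dox lowered a gene in siControl, and the 1909 negative interactions (blue) lie below it mostly where dox raised one, with Mest far below the line and Prl2c4 far above it.

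A grouping by the dox response in siMyc cells shares no library with the interaction, only the estimate of the spread, and gave the same order. Dox lowered 2095 genes in siMyc cells (15.9%), and 749 of them (35.8%) had a positive interaction and 83 a negative one. Their median dox response was −0.38 in siGcn5 and −0.70 in siControl. Dox raised 3804 genes in siMyc cells (28.9%), and 873 of them (22.9%) had a negative interaction and 281 a positive one. Their median dox response was 0.37 in siGcn5 and 0.53 in siControl. The share of 35.8% ran from 20.3% without siControl dox 2 to 41.0% without siGcn5 dox 2, and was 23.2%, 23.0% and 22.3% without siGcn5 dox 1, siGcn5 no-dox 1 and siControl no-dox 2. The share of 22.9% ran from 10.7% without siGcn5 no-dox 1 to 26% without siGcn5 dox 2, and was 14.3%, 13.1%, 12.9% and 11.5% without siGcn5 dox 1, siControl dox 2, siControl no-dox 1 and siControl no-dox 2. The share called in the direction dox took in siMyc was 3.96% among genes that dox lowered there (1.96% to 4.19% with 1 library left out) and 7.39% among those it raised (4.12% to 8.24%).

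The siGcn5 effect, siGcn5 minus siControl, sorted the calls into those where it was present before dox and those where it appeared with dox. It passed the test for 56.3% of genes with dox (31.4% higher, 24.9% lower) and 57.3% without dox (36.9% higher, 20.4% lower). Of the positive interactions, 506 were lower in siGcn5 without dox and not called with dox, 489 were not called without dox and higher in siGcn5 with dox, and 153 were lower without dox and higher with dox. Of the negative interactions, 791 were higher in siGcn5 without dox and not called with dox, 600 were not called without dox and lower in siGcn5 with dox, and 176 were higher without dox and lower with dox. With any 1 library left out, the first kind made up 27.7% to 44.1% of positive and 33.9% to 57.0% of negative interactions, and the second kind 26.3% to 43.6% and 21.1% to 39.4%.

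The knockdown target was lower in siGcn5 libraries in both states. Kat2a, which encodes Gcn5, was at 6.27 and 9.11 RPKM with dox and 1.33 and 1.97 RPKM without dox in siGcn5. In siControl it was at 55.7 and 53.1 RPKM with dox and 23.03 and 20.7 RPKM without dox. The siGcn5 libraries lay below the siControl libraries in each state, and dox raised Kat2a in both arms. The interaction of Kat2a was 0.43 (SE 0.21, adjusted p = 0.162), not a call.

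The introduced factors were induced in both arms, and RPKM does not separate the introduced copies from the cell's own genes. Pou5f1 (Oct4), the homeodomain factor of the reprogramming set, was at 137 and 200.2 RPKM with dox and 2.53 and 2.58 RPKM without dox in siGcn5. Its siControl values were 288 and 249 RPKM with dox and 1.296 and 0.942 RPKM without dox. With dox both siGcn5 libraries lay below both siControl libraries, and without dox both lay above, at low levels. Its interaction was −1.44 (SE 0.24, adjusted p = 0.00453). Myc, which recruits coactivators to growth genes, was at 103 and 129 RPKM with dox and 9.31 and 7.098 RPKM without dox in siGcn5. The siControl libraries had 174 and 155 RPKM with dox and 21.7 and 17.6 RPKM without dox, with siGcn5 below siControl in each state. Its interaction of 0.66 (adjusted p = 0.101) was not called. The interaction was −0.90 (adjusted p = 0.0604) for Sox2, a partner of Oct4, and 0.16 (adjusted p = 0.596) for Klf4, a zinc finger factor. Sox2 passed the test without siGcn5 dox 2, and the Klf4 value turned to −0.05 without that library. In siGcn5 with dox, the replicates of Pou5f1 and Sox2 stood apart, with Sox2 at 13.6 and 25.4 RPKM, so the level of induction in siGcn5 is known only within that spread.

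Gene lists showed where positive and negative interactions gathered. Over all tested genes, 11.4% were called positive and 14.5% negative, the background for the list counts of the main fit below. Of the 13175 genes, 1831 were called positive and 1380 negative after median-ratio scaling, and 1615 and 1477 after quantile normalization. With 1 library left out, the calls over all genes mostly fell too. List counts from such fits are therefore not to be set against 11.4% and 14.5%. The median interaction over all tested genes was −0.08 (−0.03 after median-ratio scaling), against 1.21 for collagens, 1.05 for other extracellular matrix genes, and 0.85 for matrix proteases and their inhibitors. The list called other matrix genes is mixed. It also holds fibroblast genes of the cell surface (Pdgfra, Pdgfrb, Thy1, Cdh2, Cdh11, Itga11 and Fap) and of the cell interior (Vim, S100a4, Acta2 and Tagln). The lowest medians among lists with 10 or more tested members were −0.47 for ribosome biogenesis genes and −0.34 for core spliceosome genes. Most tested genes lay below 0. By the dox response in siMyc these were 2516 of 3804 raised genes, 510 of 2095 lowered genes and 4678 of 7276 genes not called. Of the lists with 10 or more tested members, 16 had no call in one direction by limma; in that direction 0 to 3 members reached an unadjusted p under 0.05, and voom on recovered whole reads called 0 to 1.

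**Figure D2:**
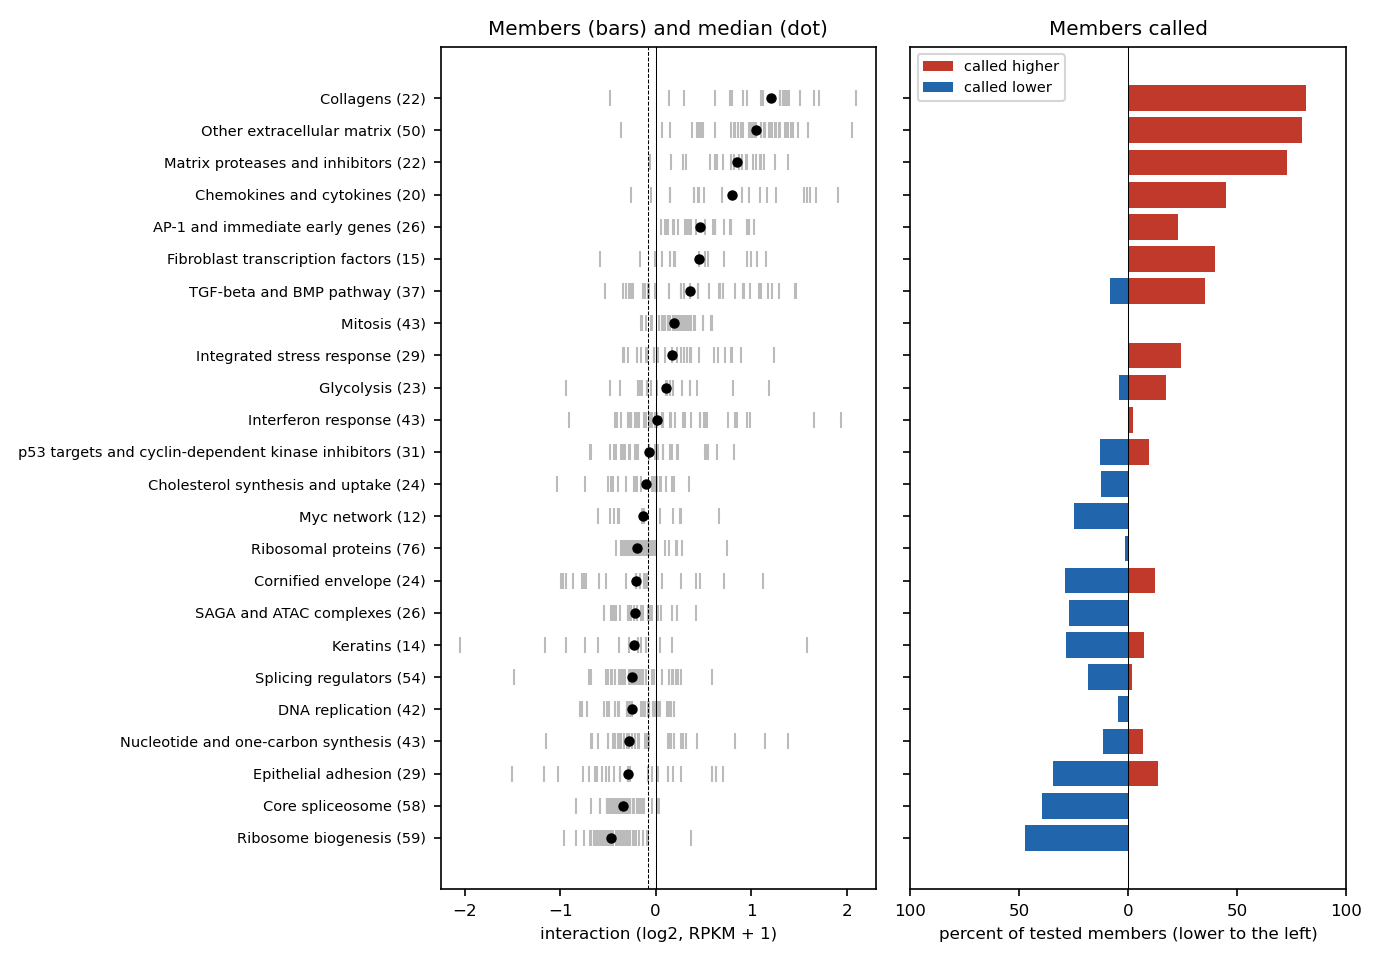
The left panel shows the log2 interaction of each tested member (grey bars) and the median (dot) of the lists with 10 or more tested members, with the number of tested members in brackets; the dashed line marks the median of all genes, −0.08. The right panel shows the percent of tested members called, positive to the right and negative to the left; 18 of 22 collagens and 40 of 50 other matrix genes were called positive, and 28 of 59 ribosome biogenesis genes negative.

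The lists of fibroblast matrix genes had the highest medians, with surface and cytoskeletal genes counted among the other matrix genes. Of 22 collagen genes tested, 18 had a positive interaction and none a negative one; of 50 other extracellular matrix genes, 40 had a positive interaction and none a negative one. Over all genes, 11.4% were called positive and 14.5% negative. All 18 collagens kept the positive call without each of the 8 libraries in turn, as did 33 of the 40 other matrix genes. The collagens had a median dox response of −0.70 in siGcn5 and −1.69 in siControl, and the other matrix genes one of −0.73 in siGcn5 and −1.86 in siControl. In siMyc these medians were −0.69 for the collagens and −0.77 for the other matrix genes, close to those in siGcn5. Dox lowered 15 of 22 collagens in siGcn5 and 21 of 22 in siControl, and 38 of 50 other matrix genes in siGcn5 and 46 of 50 in siControl. Over all genes, dox lowered 22.4% in siGcn5 and 27.9% in siControl. Without dox, 11 collagens and 30 other matrix genes were lower in siGcn5 than in siControl, against 20.4% of all genes, and 4 and 5 were higher. With dox, 13 collagens and 24 other matrix genes were higher in siGcn5, against 31.4% of all genes, and 2 and 5 were lower.

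For Fn1, Postn, Fmod and Wisp2 the siGcn5 effect was small without dox and larger with dox. Fn1, which encodes the cell adhesion protein fibronectin, was at 1020.1 and 849 RPKM with dox and 1565 and 1583 RPKM without dox in siGcn5. Values in siControl were 311 and 282 RPKM with dox and 1534 and 1503 RPKM without dox. Without dox the 4 values lay close together, and with dox both siGcn5 libraries lay above both siControl libraries. The interaction of Fn1 was 1.6 (SE 0.14, adjusted p = 0.000341). Postn, which encodes the matricellular protein periostin, was at 64.9 and 49.1 RPKM with dox and 133 and 164 RPKM without dox in siGcn5. With siControl it stood at 12.9 and 12.98 RPKM with dox and 127 and 175 RPKM without dox. The groups without dox overlapped and those with dox did not, and the interaction was 2.05 (SE 0.26, adjusted p = 0.002001). Fmod, which encodes the collagen-binding proteoglycan fibromodulin, had an interaction of 1.6 (adjusted p = 0.00255), and Wisp2, which encodes a secreted CCN family protein, one of 1.49 (adjusted p = 0.000151). The siGcn5 effect was 1.69 with dox and 0.09 without dox for Fmod, and 1.29 with dox and −0.20 without dox for Wisp2.

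For Col6a1, Col6a2, Col6a3, Spp1 and Timp2 the arms differed before dox and came closer with dox. Col6a1, which encodes a chain of the microfibrillar collagen VI, was at 84.8 and 82.7 RPKM with dox and 33.6 and 49.8 RPKM without dox in siGcn5. Control siRNA gave 98.97 and 91.3 RPKM with dox and 184 and 225 RPKM without dox. Dox moved it in opposite directions: the siGcn5 libraries with dox lay above those without, and the siControl libraries with dox lay below those without. The interaction was 2.1 (SE 0.23, adjusted p = 0.00138). The partner chains Col6a2 and Col6a3 had interactions of 1.51 (adjusted p = 0.003096) and 1.65 (adjusted p = 0.00217), and their siGcn5 effects were −0.33 with dox and −1.84 without dox for Col6a2, and −0.77 with dox and −2.43 without dox for Col6a3. Spp1, which encodes the secreted phosphoprotein osteopontin, was at 244 and 232 RPKM with dox and 183 and 338 RPKM without dox in siGcn5. Libraries given siControl had 188 and 162 RPKM with dox and 831 and 919 RPKM without dox. Its siControl libraries without dox stood far above the other 6, and the interaction was 2.25 (SE 0.33, adjusted p = 0.00317). Timp2, an inhibitor of matrix metalloproteinases, followed the same course: its siGcn5 effect was −0.41 with dox and −1.51 without dox, and its interaction was 1.1 (adjusted p = 0.002699).

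**Figure D3:**
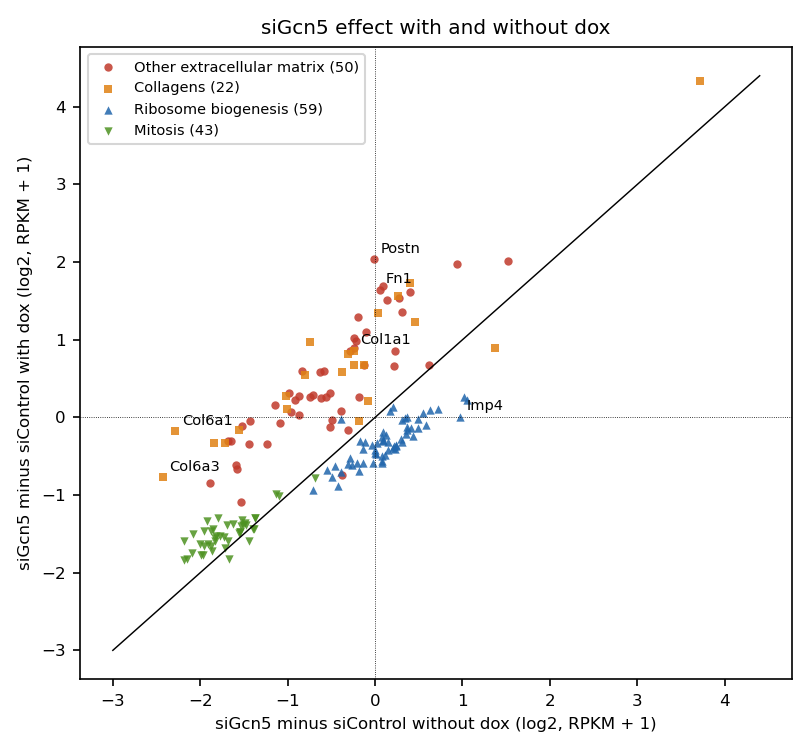
Each point is a tested member of 4 gene lists, with the log2 siGcn5 effect (siGcn5 minus siControl) without dox on the x axis and with dox on the y axis; the line marks equal effects. Of the collagens 21 of 22 and of the other matrix genes 49 of 50 lie above the line. Fn1 and Postn lie near 0 without dox, and Col6a1 and Col6a3 lie far below 0 without dox. Most ribosome biogenesis genes lie below the line. Of the mitosis genes, 38 of 43 lie above it, by a median of 0.19.

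**Figure D4:**
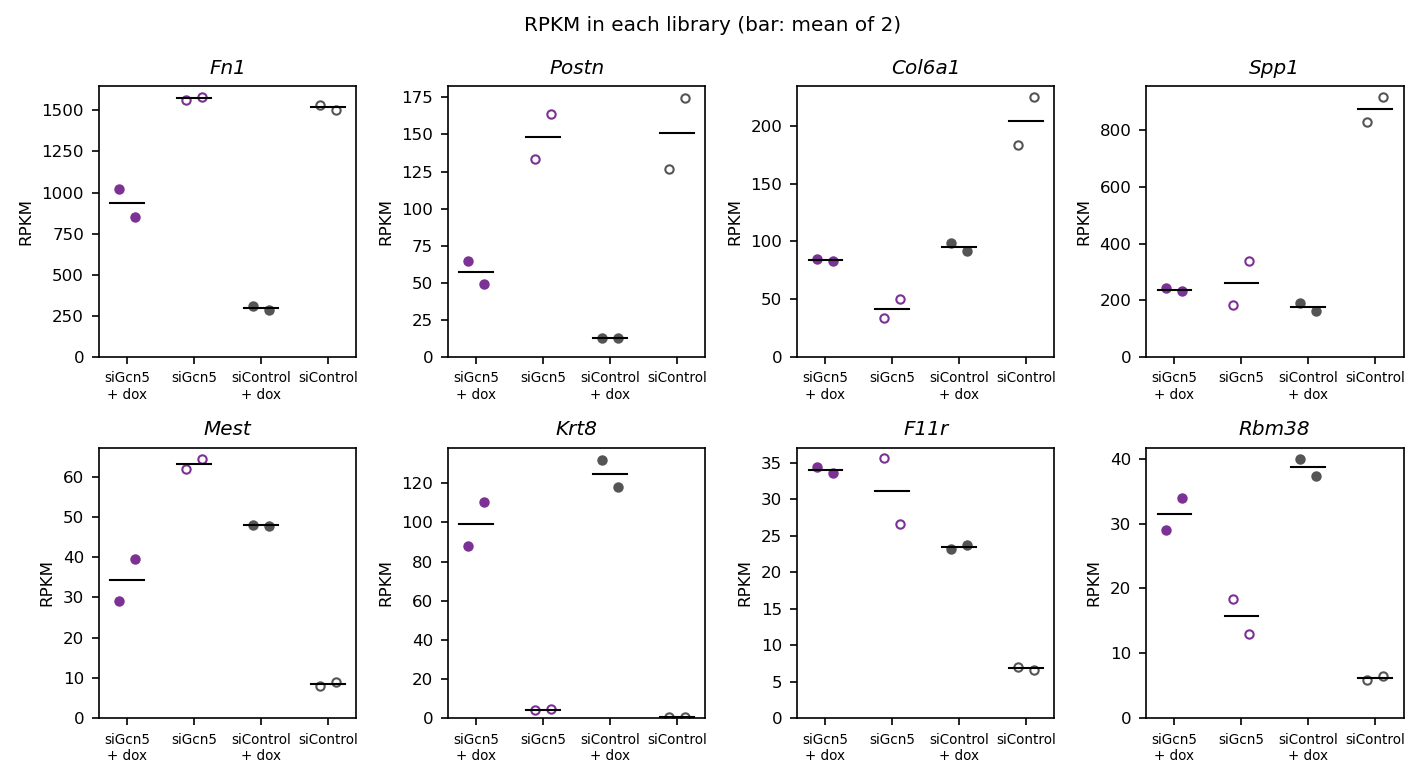
RPKM of 8 genes in each of the 8 libraries, with siGcn5 in purple, siControl in grey, filled points for dox and open points for no dox; the bar is the mean of 2 libraries. Fn1 and Postn differ between siGcn5 and siControl with dox, Col6a1, Spp1, Mest and F11r differ mainly without dox, and Krt8 and Rbm38 are induced by dox in both arms from different starting levels.

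Genes that process the matrix had interactions of the same sign. Of 22 matrix proteases and inhibitors, 16 had a positive interaction and none a negative one. Plau, the urokinase that activates plasmin, was at 57.2 and 46.98 RPKM with dox and 65.1 and 67.1 RPKM without dox in siGcn5. Under siControl it had 22.6 and 18.7 RPKM with dox and 70.3 and 70.9 RPKM without dox, and the interaction was 1.39 (SE 0.16, adjusted p = 0.00158). As with Fn1, the 4 libraries without dox lay close together and the siGcn5 libraries with dox lay above the siControl libraries with dox. Adamts2, the protease that trims procollagen, had an interaction of 1.25 (adjusted p = 0.00492).

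Of 37 genes of the TGF-beta and BMP pathway, 13 had a positive and 3 a negative interaction, against 11.4% and 14.5% over all genes. The positive calls numbered 8 without siControl dox 2. The negative calls numbered 1 after either scaling, and 0 without siGcn5 no-dox 1, siControl dox 2 or siControl no-dox 2, and 1 without siGcn5 dox 1, siControl dox 1 or siControl no-dox 1. The ligand Tgfb3 was at 58.8 and 39.6 RPKM with dox and 76.8 and 76.8 RPKM without dox in siGcn5. In siControl it was at 20.6 and 16.8 RPKM with dox and 73.5 and 68.03 RPKM without dox, and its interaction was 1.21 (SE 0.23, adjusted p = 0.00644). The siGcn5 libraries with dox lay above the siControl libraries with dox, as for Fn1. Inhba, which encodes the activin A subunit, had an interaction of 1.46 (adjusted p = 0.00477), and Ltbp2, a latent TGF-beta binding family protein, one of 1.3 (adjusted p = 0.00418). Grem1, a secreted BMP antagonist, was at 1.47 (adjusted p = 0.0308), which ended without siGcn5 dox 1, siGcn5 dox 2, siGcn5 no-dox 1, siControl dox 1, siControl dox 2 or siControl no-dox 2 (adjusted p = 0.0534 to 0.111).

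Of 15 fibroblast transcription factors, 6 had a positive interaction and none a negative one, and 3 were called without siGcn5 dox 1, siControl dox 2, siControl no-dox 1 or siControl no-dox 2. Prrx2, a mesenchymal homeobox factor, was at 54.5 and 49.1 RPKM with dox and 72.6 and 72.3 RPKM without dox in siGcn5. Its siControl values were 26.7 and 18.4 RPKM with dox and 69.6 and 71.8 RPKM without dox. Its 4 libraries without dox lay close together, while with dox siGcn5 lay above siControl, and the interaction was 1.15 (SE 0.19, adjusted p = 0.00462). Snai2, a repressor of epithelial genes, had an interaction of 0.96 (adjusted p = 0.0104) with a siGcn5 effect of −0.13 with dox and −1.09 without dox. The related repressor Snai1 had an interaction of 0.99 (adjusted p = 0.0175), which ended without siGcn5 dox 1, siControl dox 2 or siControl no-dox 1 (adjusted p = 0.0573 to 0.0648).

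Secreted inflammatory signals also had positive interactions. Of 20 chemokines and cytokines, 9 had a positive interaction and none a negative one, and 4 were called without siControl dox 2. Cxcl14, a chemokine, was at 30.8 and 32.04 RPKM with dox and 35.1 and 55.1 RPKM without dox in siGcn5. The siControl libraries had 15.3 and 15.8 RPKM with dox and 75.3 and 96.9 RPKM without dox. With dox siGcn5 lay above siControl and without dox below it, and the interaction was 1.91 (SE 0.33, adjusted p = 0.00505). Il11, a cytokine that fibroblasts release under TGF-beta, was at 14.6 and 10.9 RPKM with dox and 7.35 and 9.52 RPKM without dox in siGcn5. Values in siControl were 6.503 and 4.32 RPKM with dox and 13.2 and 12.7 RPKM without dox. Dox lowered it in siControl, and the interaction was 1.68 (SE 0.27, adjusted p = 0.00429). In siGcn5 the dox response was 0.54 (adjusted p = 0.034), and its call ended without siGcn5 dox 1 or siGcn5 no-dox 1 (adjusted p = 0.201 to 0.207). Ccl2, which attracts monocytes, had an interaction of 1.58 (adjusted p = 0.0133), which ended without siControl dox 2 (adjusted p = 0.0531).

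The AP-1 and immediate early genes, which answer growth factor signals, had an interaction above 0 for 26 of 26 tested members, against a median of −0.08 over all genes. Of them 6 passed the test, all positive, and the count was 2 with no filter on low values, 2 without siGcn5 dox 1, siGcn5 no-dox 1, siControl dox 2 or siControl no-dox 1, 3 without siControl no-dox 2, and 10 without siGcn5 dox 2. Fosl2, a Fos family subunit of AP-1, was at 22.1 and 18.04 RPKM with dox and 20.7 and 20.4 RPKM without dox in siGcn5. With siControl it stood at 17.2 and 13.3 RPKM with dox and 32.4 and 30.9 RPKM without dox, and its interaction was 0.98 (SE 0.19, adjusted p = 0.00725). The siControl libraries without dox stood above the other 6, and the dox response was −0.04 in siGcn5 and −1.01 in siControl. The phosphatases Dusp5 and Dusp6, which switch off ERK signalling, were at 1.03 and 0.98, and the growth factor Hbegf at 0.78. The call of Dusp5 ended without siGcn5 dox 1, siGcn5 no-dox 1, siGcn5 no-dox 2, siControl dox 2, siControl no-dox 1 or siControl no-dox 2 (adjusted p = 0.0552 to 0.127), that of Dusp6 ended without siGcn5 dox 1, siGcn5 no-dox 1, siGcn5 no-dox 2, siControl dox 2, siControl no-dox 1 or siControl no-dox 2 (adjusted p = 0.06095 to 0.111), and that of Hbegf ended without siGcn5 dox 1, siGcn5 no-dox 1, siGcn5 no-dox 2, siControl dox 2 or siControl no-dox 1 (adjusted p = 0.0704 to 0.143).

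Of 29 genes of the integrated stress response, 7 had a positive interaction and none a negative one, and the count was 4 with no filter on low values, 3 without siControl dox 2 or siControl no-dox 2, and 4 without siGcn5 dox 1, siGcn5 no-dox 2 or siControl no-dox 1. Ddit3, the stress-induced transcription factor CHOP, was at 74.5 and 54.5 RPKM with dox and 119 and 90.8 RPKM without dox in siGcn5. Control siRNA gave 16.3 and 15.9 RPKM with dox and 60.9 and 68.5 RPKM without dox. With dox the siGcn5 libraries lay above the siControl libraries by more than without dox, and the interaction was 1.24 (SE 0.22, adjusted p = 0.00582). Vldlr, a lipoprotein receptor, had an interaction of 0.72 (adjusted p = 0.00668). Aldh1l2, a mitochondrial folate enzyme, is not among these 29 and is counted below with the nucleotide and one-carbon genes. Its interaction was 1.15 (adjusted p = 0.0134), and its call ended without siControl no-dox 2. Atf5 and Cebpb, both transcription factors of this response, were at 0.80 and 0.79. The Atf5 call ended without siGcn5 dox 1, siGcn5 no-dox 2, siControl dox 2, siControl no-dox 1 or siControl no-dox 2 (adjusted p = 0.0626 to 0.0868) and the Cebpb call ended without siGcn5 dox 1, siGcn5 no-dox 2, siControl dox 2, siControl no-dox 1 or siControl no-dox 2 (adjusted p = 0.0597 to 0.0753).

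Epithelial genes were more often negative. Dox raised 27 of 29 epithelial adhesion genes in siGcn5 and 28 of 29 in siControl, against 36% and 46.1% of all genes. Of these 29 epithelial adhesion genes, 10 had a negative and 4 a positive interaction. The positive calls numbered 1 with a pseudocount of 0.1 and 1 by voom on recovered whole reads. The negative calls numbered 5 without siGcn5 dox 1, siGcn5 no-dox 1 or siControl no-dox 2; the positive calls numbered 2 without siGcn5 no-dox 1, siControl dox 2 or siControl no-dox 1. F11r, which encodes the tight junction protein JAM-A, was at 34.4 and 33.6 RPKM with dox and 35.7 and 26.6 RPKM without dox in siGcn5. Libraries given siControl had 23.2 and 23.7 RPKM with dox and 7.001 and 6.69 RPKM without dox. Its siControl libraries without dox stood below the other 6, and the interaction was −1.5 (SE 0.19, adjusted p = 0.00217). St14, the membrane protease matriptase, was at 13.3 and 15.4 RPKM with dox and 1.88 and 1.21 RPKM without dox in siGcn5. Under siControl it had 19.2 and 17.1 RPKM with dox and 0.477 and 0.323 RPKM without dox. Its siGcn5 libraries lay above siControl without dox and below it with dox, and the interaction was −1.17 (SE 0.20, adjusted p = 0.00477). The desmosomal cadherin Dsc2 had an interaction of −1.02 (adjusted p = 0.00449), and Grhl3, a transcription factor of epidermal differentiation, one of −0.76 (adjusted p = 0.00413). Epcam, an adhesion protein of simple epithelia, was at −0.38 (adjusted p = 0.148), not a call.

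Among 14 keratins, 4 had a negative and 1 a positive interaction. Krt8, the keratin of simple epithelia, was at 87.7 and 110.4 RPKM with dox and 4.41 and 4.51 RPKM without dox in siGcn5. In siControl it was at 132 and 118 RPKM with dox and 0.695 and 0.653 RPKM without dox. It was induced in both arms, the siGcn5 libraries without dox stood above the siControl ones, and those with dox lay below. Its interaction was −2.04 (SE 0.15, adjusted p = 0.000173). Krt18, the pairing partner of Krt8, behaved differently: it was at 14.1 and 11.2 RPKM with dox and 36.7 and 31.6 RPKM without dox in siGcn5. Its siControl values were 5.96 and 4.63 RPKM with dox and 5.73 and 6.74 RPKM without dox. Its dox response was −1.37 in siGcn5 and −0.21 in siControl, with an interaction of −1.16 (SE 0.19, adjusted p = 0.004696). Krt20, a keratin of intestinal and umbrella epithelium, had the single positive call: it was at 11.9 and 11.7 RPKM with dox and 4.105 and 4.68 RPKM without dox in siGcn5. The siControl libraries had 3.28 and 3.07 RPKM with dox and 4.55 and 4.03 RPKM without dox. The siGcn5 libraries with dox stood above the other 6, and the interaction was 1.59 (SE 0.12, adjusted p = 0.0002097).

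Of 24 genes of the cornified envelope, the outer barrier of the epidermis, 7 had a negative and 3 a positive interaction. The negative calls numbered 1 without siGcn5 no-dox 1, 2 without siControl dox 1, 3 without siControl no-dox 1 or siControl no-dox 2, and 4 without siGcn5 dox 1 or siGcn5 no-dox 2, 4 with no filter on low values, and 1 in a fit of recovered whole reads. Of these 24 genes, 18 averaged under 1 RPKM without dox in both arms, where the + 1 in log2(RPKM + 1) limits the dox response, so the interaction mostly compares levels with dox. Klk7, a protease that sheds corneocytes, was at 0.756 and 0.972 RPKM with dox and 0.00925 and 0.0265 RPKM without dox in siGcn5. Values in siControl were 2.55 and 2.93 RPKM with dox and 0.03403 and 0.0229 RPKM without dox, with an interaction of −0.99 (SE 0.16, adjusted p = 0.00418). Slurp1, a secreted keratinocyte protein, was listed at 0 in siGcn5 without dox, and stood at 38.7 and 63.1 RPKM in siGcn5 with dox against 106 and 95.1 RPKM in siControl with dox. Its interaction of −0.97 (adjusted p = 0.0183) ended without siGcn5 no-dox 1, siControl dox 1 or siControl no-dox 2 (adjusted p = 0.0541 to 0.0626) and was 0.06 in the fit of recovered whole reads. Krt6b, a stress keratin, was also listed at 0 in siGcn5 without dox, and its interaction was −0.93 as given and 2.66 in that fit. Casp14, the caspase of terminal keratinocyte differentiation, had a positive interaction of 1.12 (adjusted p = 0.00349).

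Genes for ribosome production were raised by dox in both arms, 57 of 59 in siGcn5 and 58 of 59 in siControl, and many had a negative interaction. Dox raised 36% of all genes in siGcn5 and 46.1% in siControl. Of 59 ribosome biogenesis genes, 28 had a negative interaction and none a positive one, and 58 of 59 lay below 0, as did most tested genes. The negative calls numbered 17 after median-ratio scaling and 14 after quantile normalization. They numbered 8 without siGcn5 dox 1, 9 without siGcn5 no-dox 1 or siControl dox 2, 10 without siControl no-dox 2, and 12 without siControl no-dox 1. Their median dox response was 0.97 in siGcn5 and 1.43 in siControl. With dox the siGcn5 effect on these genes had a median of −0.32, with 33 called lower and 0 higher. Without dox its median was 0.11, with 19 called higher and 6 lower. Over all genes, 24.9% were lower in siGcn5 with dox and 36.9% higher without dox. Fewer of the 59 were called lower with dox when siGcn5 dox 1 or siControl dox 2 was left out. Imp4, a component of the particle that processes the small subunit RNA, was at 52.8 and 53.9 RPKM with dox and 41.3 and 36.4 RPKM without dox in siGcn5. With siControl it stood at 52.4 and 53.5 RPKM with dox and 19.9 and 18.6 RPKM without dox. The arms met with dox, and without dox the siGcn5 libraries stood above the siControl libraries. Its interaction was −0.96 (SE 0.12, adjusted p = 0.001996). The processing factors Rrp9, Rrp12 and Brix1 were at −0.83, −0.75 and −0.69. The call of Rrp9 ended without siGcn5 dox 1, siGcn5 no-dox 1, siControl dox 1 or siControl no-dox 2 (adjusted p = 0.0519 to 0.0752), that of Rrp12 ended without siGcn5 no-dox 1 or siControl no-dox 2 (adjusted p = 0.0587 to 0.0615), and that of Brix1 ended without siGcn5 dox 1, siGcn5 no-dox 2, siControl dox 2 or siControl no-dox 1 (adjusted p = 0.0555 to 0.0763). Of 76 ribosomal protein genes, 70 lay below 0, and 1, Rps27, was called; it was at −0.42 (adjusted p = 0.0326), and its call ended without siGcn5 dox 1, siGcn5 no-dox 1, siGcn5 no-dox 2, siControl dox 2, siControl no-dox 1 or siControl no-dox 2 (adjusted p = 0.0512 to 0.115). More were called without siGcn5 dox 2, and 0 after median-ratio scaling and 3 after quantile normalization. The median interaction of the ribosomal protein genes was −0.20, against −0.13 after median-ratio scaling and −0.08 after quantile normalization, so part of this shift depends on the scaling.

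Promoter windows of 250 bases before and 50 after the start were available for 9088 of the tested genes, as 11614 windows from RefSeq (GRCm38.p6; coordinates are on this build, not on the build of the files). The 6 letters CACGTG, the E-box that Myc and Max bind, stood in 8 of 30 windows of the called ribosome biogenesis genes (26.7%), and in 9.95% of the windows of all tested genes. Windows of the ribosome biogenesis genes that were not called were not counted. Whether the share differs between called and other members of the list was therefore not tested. Both windows below are from members with a negative interaction and hold 1 E-box each, in capitals. The Wdr43 call ended without siGcn5 dox 1, siGcn5 no-dox 1, siControl dox 2 or siControl no-dox 2 (adjusted p = 0.0633 to 0.0778). Both are shown as the windows of the 2 called members with the most negative interaction among those that hold the letters, and a match is a description, not a site in use.
Imp4, chr1:34439579-34439878, plus strand: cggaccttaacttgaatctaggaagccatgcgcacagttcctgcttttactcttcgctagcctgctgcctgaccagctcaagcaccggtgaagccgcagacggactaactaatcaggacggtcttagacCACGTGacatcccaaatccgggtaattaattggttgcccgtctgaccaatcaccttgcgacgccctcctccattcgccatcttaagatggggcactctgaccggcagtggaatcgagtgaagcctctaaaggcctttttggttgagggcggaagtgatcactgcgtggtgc
Wdr43, chr17:71615965-71616264, plus strand: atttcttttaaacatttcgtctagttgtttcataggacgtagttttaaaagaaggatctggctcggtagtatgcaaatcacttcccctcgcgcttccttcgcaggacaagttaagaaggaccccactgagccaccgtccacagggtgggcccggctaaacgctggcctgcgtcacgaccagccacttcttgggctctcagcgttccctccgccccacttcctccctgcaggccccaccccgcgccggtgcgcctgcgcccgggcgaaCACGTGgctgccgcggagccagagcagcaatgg
Over all called genes, the E-box stood in 12.1% of windows with a negative and 8.11% with a positive interaction. The letters CCGGAAGT, an ETS site, stood in 10.9% of windows with a negative, 2.26% with a positive interaction and 7.53% of all tested windows. TGACTCA, the AP-1 site, stood in 4.22% of windows with a negative, 7.01% with a positive interaction and 4.01% of all tested windows. Both strands were searched for 11 motifs chosen with the values known, no share was tested, and the windows differed in CG content, with a mean of 21.5 CG dinucleotides for negative and 17.3 for positive interactions, against 20.6 for all tested windows. The other 8 motifs stood in 1.11% to 35.6% of windows with a negative and in 1.02% to 33.5% of windows with a positive interaction.

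Splicing genes, the interest of the study, were called more often negative than positive. Of 58 core spliceosome genes, 23 had a negative interaction and none a positive one, and 56 lay below 0, as did most tested genes. With dox the siGcn5 effect on the 58 genes had a median of −0.36, with 41 called lower and 3 higher. Without dox its median was 0.005, with 15 called higher and 10 lower. Over all genes, 24.9% were lower in siGcn5 with dox and 36.9% higher without dox. Fewer of the 58 were called lower with dox when siGcn5 dox 1 was left out. The negative interaction calls numbered 10 after median-ratio scaling and 9 after quantile normalization. They numbered 7 without siControl no-dox 2, 9 without siGcn5 dox 1 or siGcn5 no-dox 1, 10 without siControl no-dox 1, 11 without siControl dox 2, 14 without siGcn5 no-dox 2 or siControl dox 1, and 36 without siGcn5 dox 2. Sf3a2, a subunit of the SF3a particle that recognises the branch site, was at 58.4 and 59.96 RPKM with dox and 53.5 and 46.005 RPKM without dox in siGcn5. Control siRNA gave 75.9 and 68.2 RPKM with dox and 34.3 and 32.4 RPKM without dox. Without dox siGcn5 lay above siControl and with dox below it, with an interaction of −0.84 (SE 0.13, adjusted p = 0.00403). Sf3a3, of the same particle, had an interaction of −0.58 (adjusted p = 0.00729), and its siGcn5 effect was −0.47 with dox and 0.11 without dox.

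Of 54 splicing regulators, 10 had a negative and 1 a positive interaction, a negative share near the 14.5% over all genes. The negative ones numbered 5 after median-ratio scaling, 6 after quantile normalization and 6 with array weights. The negative calls numbered 4 without siGcn5 no-dox 1 or siControl dox 2, 5 without siControl no-dox 1 or siControl no-dox 2, 6 without siGcn5 dox 1, and 19 without siGcn5 dox 2. Rbm38, an RNA-binding protein of the p53 network, was at 29.1 and 34.01 RPKM with dox and 18.4 and 13.01 RPKM without dox in siGcn5. Libraries given siControl had 40.01 and 37.4 RPKM with dox and 5.86 and 6.55 RPKM without dox. Its siGcn5 libraries stood above siControl without dox and below it with dox, and the interaction was −1.49 (SE 0.19, adjusted p = 0.00232). Prmt5, the arginine methyltransferase that modifies Sm proteins, was at 71.5 and 73.9 RPKM with dox and 45.4 and 38.4 RPKM without dox in siGcn5. Under siControl it had 81.2 and 83.4 RPKM with dox and 29.4 and 28.2 RPKM without dox, and its interaction was −0.70 (SE 0.16, adjusted p = 0.0116). Here too siGcn5 lay above siControl without dox, and with dox it lay below. Srsf4, an SR protein, had siGcn5 effects of −0.60 with dox and 0.08 without dox and an interaction of −0.68 (adjusted p = 0.0103). Mbnl2, a muscleblind regulator that favours differentiated splicing patterns, had the single positive call: it was at 54.7 and 46.4 RPKM with dox and 58.9 and 58.7 RPKM without dox in siGcn5. In siControl it was at 25.5 and 24.9 RPKM with dox and 45.9 and 43.9 RPKM without dox, and its interaction was 0.59 (SE 0.12, adjusted p = 0.00869). The siGcn5 libraries lay above the siControl libraries in both states, by more with dox.

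Subunits of Gcn5's own complexes had small interactions. Of 26 SAGA and ATAC genes, 7 had a negative interaction and none a positive one, against 14.5% negative calls over all genes, and the list's median was −0.21. The calls numbered 4 after median-ratio scaling or in a fit of the 8 libraries alone, 2 after quantile normalization, and 1 without siControl no-dox 1, 2 without siGcn5 dox 1, siGcn5 no-dox 1, siControl dox 2 or siControl no-dox 2, and 4 without siGcn5 no-dox 2. Usp22, the deubiquitinase of SAGA, was at 26.6 and 30.7 RPKM with dox and 29.7 and 27.5 RPKM without dox in siGcn5. Its siControl values were 33.3 and 33.2 RPKM with dox and 22.7 and 22.5 RPKM without dox, and its interaction was −0.54 (SE 0.11, adjusted p = 0.00809). Its siControl libraries without dox were the lowest and those with dox the highest. Wdr5, Ccdc101 and Tada2a, subunits of ATAC, SAGA or both, were at −0.55, −0.47 and −0.47. The Wdr5 call ended without siGcn5 dox 1, siGcn5 no-dox 1, siControl dox 2, siControl no-dox 1 or siControl no-dox 2 (adjusted p = 0.0587 to 0.07696), the Ccdc101 call ended without any 1 library other than siGcn5 no-dox 2 (adjusted p = 0.0531 to 0.11998) and the Tada2a call ended without any 1 library other than siGcn5 dox 2 (adjusted p = 0.0515 to 0.0765).

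Of 12 genes of the Myc network, 3 had a negative interaction, and 1 without siControl no-dox 1. Mlxip, a glucose-sensing partner of Mlx, was at 6.26 and 6.32 RPKM with dox and 8.81 and 8.08 RPKM without dox in siGcn5. The siControl libraries had 6.36 and 6.31 RPKM with dox and 5.31 and 5.21 RPKM without dox, with an interaction of −0.60 (SE 0.10, adjusted p = 0.005199). Its siGcn5 libraries without dox stood above the other 6. Max, the dimerisation partner of Myc, was at −0.48 (adjusted p = 0.0135), and its call ended without siControl no-dox 1 (adjusted p = 0.0524), and Mlx was at −0.44 (adjusted p = 0.0168), and its call ended without siGcn5 dox 1, siGcn5 no-dox 1, siControl dox 2, siControl no-dox 1 or siControl no-dox 2 (adjusted p = 0.0519 to 0.0634).

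Proliferation genes were low in siGcn5 in both states, and few of them were called for the interaction. All 43 mitosis genes and all 42 DNA replication genes tested were lower in siGcn5 with dox, and 43 and 37 of them were lower without dox. Over all genes, 24.9% were lower in siGcn5 with dox and 20.4% without dox. The median siGcn5 effect on mitosis genes was −1.49 with dox and −1.72 without dox, and on DNA replication genes −1.25 with dox and −0.98 without dox. None of the 43 mitosis genes passed the interaction test in limma, 0 reached an unadjusted p under 0.05, and 0 were called by voom on recovered whole reads. Their interactions still leaned to 1 side, with 38 of 43 above 0 and a median of 0.19. With 1 library left out, 3 were called positive without siGcn5 dox 1 and 2 without siGcn5 no-dox 2. Of 42 DNA replication genes 2 were called, both negative, and this count was 1 after either scaling, 0 without siControl no-dox 1, 1 without siGcn5 dox 1, siGcn5 no-dox 1, siGcn5 no-dox 2, siControl dox 2 or siControl no-dox 2, and 15 without siGcn5 dox 2. Tpx2, a spindle assembly factor, was at 13.7 and 20.9 RPKM with dox and 5.79 and 11.2 RPKM without dox in siGcn5. Values in siControl were 42.1 and 46.6 RPKM with dox and 34.4 and 32.5 RPKM without dox. The siGcn5 libraries lay below the siControl libraries in each state, and the interaction was 0.59 (adjusted p = 0.219), 95% interval −0.17 to 1.34.

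Interferon response genes gave the opposite case, high in siGcn5 in both states. Of 43 tested, 34 were higher in siGcn5 with dox and 36 without dox, against 31.4% and 36.9% of all genes. The count without dox was 17 without siGcn5 no-dox 1 and 23 without siControl no-dox 1. The interaction was called for 1 gene, the immunity GTPase Irgm1, at 0.95 (adjusted p = 0.0447), which ended without any 1 library other than siGcn5 dox 2 (adjusted p = 0.0699 to 0.1202); without siGcn5 dox 2, 11 genes were called.

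Metabolic and arrest genes had few calls, against 11.4% positive and 14.5% negative calls over all genes, and most of these counts were no more than that background. Of 43 nucleotide and one-carbon genes, 5 had a negative and 3 a positive interaction, and the negative calls numbered 3 after either scaling, 8 in a fit of the 8 libraries alone, 2 without siGcn5 dox 1, siGcn5 no-dox 1, siControl dox 2 or siControl no-dox 2, 3 without siControl dox 1 or siControl no-dox 1, and 10 without siGcn5 dox 2. Gamt, the enzyme that makes creatine, had an interaction of 1.39 (adjusted p = 0.0109). Of 24 cholesterol genes, 3 had a negative interaction and none a positive one, and 5 were negative without siGcn5 dox 2. Dhcr7, an enzyme of the last steps of cholesterol synthesis, was at 7.34 and 9.78 RPKM with dox and 7.59 and 9.67 RPKM without dox in siGcn5. With siControl it stood at 14.7 and 14.6 RPKM with dox and 6.24 and 7.24 RPKM without dox, with an interaction of −1.03 (SE 0.21, adjusted p = 0.00866). Its siControl libraries with dox stood above the other 6. Of 23 glycolysis genes, 4 had a positive and 1 a negative interaction. The positive calls numbered 2 with no filter on low values, and 2 without siGcn5 no-dox 1, siControl dox 2, siControl no-dox 1 or siControl no-dox 2. Negative calls numbered 0 after either scaling, and 0 without siGcn5 dox 1, siGcn5 no-dox 1, siControl dox 1, siControl dox 2 or siControl no-dox 2, and 2 without siGcn5 no-dox 2. Slc2a1, the glucose transporter GLUT1, was at 34.3 and 30.4 RPKM with dox and 31.1 and 33.5 RPKM without dox in siGcn5. Control siRNA gave 24.4 and 23.1 RPKM with dox and 40.4 and 44.8 RPKM without dox, with an interaction of 0.81 (SE 0.13, adjusted p = 0.00399). Its dox response was −0.00 in siGcn5 and −0.81 in siControl, and the siControl libraries without dox stood highest. Of 31 p53 targets and cyclin-dependent kinase inhibitors, 3 had a positive and 4 a negative interaction. The positive calls numbered 1 without siGcn5 dox 1, siControl dox 2, siControl no-dox 1 or siControl no-dox 2, and the negative calls 2 after either scaling or with no filter, 1 without siGcn5 no-dox 1 or siControl no-dox 1, and 2 without siControl dox 1, siControl dox 2 or siControl no-dox 2. Gadd45b, a growth arrest gene, was at 0.64 (adjusted p = 0.00517), and Ei24, a p53-induced endoplasmic reticulum protein, at −0.69 (adjusted p = 0.00589).

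The early pluripotency genes could not be compared in full. Of 20, 4 passed the filter on low values and none of these passed the interaction test in limma, reached an unadjusted p under 0.05 or was called by voom; all 4 lay below 0, and 1 was called after quantile normalization.

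Several of the largest interactions lay outside these lists. Mest, an imprinted gene of the mesoderm, had the most negative interaction among genes with a group mean of at least 5 RPKM. It was at 29.1 and 39.5 RPKM with dox and 62.01 and 64.4 RPKM without dox in siGcn5. Libraries given siControl had 48.1 and 47.9 RPKM with dox and 7.93 and 9.06 RPKM without dox. The siControl libraries without dox stood below the other 6, and the siGcn5 libraries without dox stood highest. Its interaction was −3.25 (SE 0.17, adjusted p = 1.30e-05). The microRNA gene Mir335 lies within Mest and had nearly the same values, so its reads cannot be told apart from those of Mest. Akr1c18, a steroid-metabolising enzyme, was at 8.65 and 11.04 RPKM with dox and 9.31 and 8.98 RPKM without dox in siGcn5. Under siControl it had 4.53 and 6.56 RPKM with dox and 0.247 and 0.352 RPKM without dox, and again the siControl libraries without dox stood apart below the other 6. Its interaction was −2.23 (SE 0.21, adjusted p = 0.000635).

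Rb1, the retinoblastoma protein that restrains cell cycle entry, was at 16.2 and 14.4 RPKM with dox and 21.8 and 19.4 RPKM without dox in siGcn5. In siControl it was at 16.9 and 18.9 RPKM with dox and 7.46 and 6.93 RPKM without dox. The siControl libraries without dox stood below the other 6, and dox moved Rb1 down in siGcn5 and up in siControl. Its interaction was −1.61 (SE 0.13, adjusted p = 0.000257). Htra3, a secreted serine protease, and Klk14, a kallikrein protease, had interactions of −1.89 (adjusted p = 0.00217) and −1.98 (adjusted p = 0.00111). The siGcn5 effect was −0.48 with dox and 1.41 without dox for Htra3, and 0.15 with dox and 2.13 without dox for Klk14, so the arms lay closer with dox.

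On the positive side, 4933402E13Rik, to which no role is given here, was at 6.13 and 5.67 RPKM with dox and 0.0438 and 0.0514 RPKM without dox in siGcn5. Its siControl values were 0.219 and 0.228 RPKM with dox and 0.02199 and 0 RPKM without dox. It was high in siGcn5 with dox and under 1 RPKM in the other 6 libraries, and the interaction was 2.44 (SE 0.10, adjusted p = 3.81e-06). Slc47a1, an exporter of organic cations, was at 6.47 and 5.005 RPKM with dox and 0.04901 and 0.0396 RPKM without dox in siGcn5. The siControl libraries had 0.633 and 0.566 RPKM with dox and 0 and 0 RPKM without dox. Its interaction was 2.00 (SE 0.15, adjusted p = 0.000194), but was −1.88 and not called in the fit of recovered whole reads; siControl without dox was listed at 0. Rgs4, a brake on G protein signalling, was at 29.2 and 22.99 RPKM with dox and 42.1 and 51.9 RPKM without dox in siGcn5. Values in siControl were 4.23 and 2.68 RPKM with dox and 27.3 and 23.9 RPKM without dox, and its interaction was 1.77 (SE 0.27, adjusted p = 0.00349). With dox siGcn5 lay far above siControl. Prl2c3 and Prl2c4, prolactin family hormones, had interactions of 3.21 and 3.22 (SE 0.50 and adjusted p = 0.00377 for each). Prl2c4 was at 28.8 and 13.2 RPKM with dox and 8.51 and 5.94 RPKM without dox in siGcn5. In siControl it was at 1.41 and 0.836 RPKM with dox and 7.44 and 6.10 RPKM without dox. Its siGcn5 replicates with dox stood apart. Prl2c3 had nearly the same values in each library. The 2 genes are near-identical copies, so reads may have been split between them and they may be 1 signal.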

How the data were processed

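For each of the 12 libraries the authors deposited RPKM values (reads per kilobase, scaled to library depth) of 23284 gene symbols, of which 2496 were at 0 throughout. Per the labels' protocols, ribosomal RNA was removed from total RNA before stranded library preparation and Illumina sequencing. Per the submitters' processing notes, reads were mapped to mm9, and TopHat2 2.0.9 and Bowtie 0.12.8 were among the tools, besides HTSeq, edgeR and affy. Which of them made the RPKM values, the annotation and the use of strand: not given in the sources used here. Reads of overlapping, near-identical or antisense genes therefore cannot be told apart, and since RPKM is scaled to the library, RNA per cell was not measured.

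RPKM values of a gene were whole multiples of 1 read's worth, which gave back reads for 100.0% of the 20788 genes above 0 (tolerance 0.05 read). These reads served for depth and for an alternative fit with voom.

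Genes with an RPKM of at least 1 in at least 2 of 12 libraries were fitted with limma-trend (limma 3.58.1, R 4.3.3) on log2(RPKM + 1), with 1 term per group, 6 residual and 4.17 prior degrees of freedom. All 12 libraries share the estimate of the spread. P-values are two-sided and Benjamini-Hochberg adjusted over all 13175 genes; called means an adjusted p under 0.05. The + 1 understates the change of low genes. SE is the standard error of the interaction, and intervals are at 95%. The fit was tested on simulated data.

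The comparison and the 26 gene lists (904 symbols, 891 found, 821 tested) were chosen with earlier results of these data known. Named genes were Kat2a, the reprogramming factors, the 12 highest and 12 lowest interactions among called genes with a group mean of at least 5 RPKM and a sign kept with any 1 library left out, and, per list, at most 4 called members with the largest interaction or else the member with the smallest p; some genes that this rule names are not reported here. Alternatives were the 8 siGcn5 and siControl libraries alone, a pseudocount of 0.1, no filter, a mean of at least 5 RPKM, median-ratio scaling, quantile normalization, voom on the recovered reads, a replicate block, array weights, and each of the 8 libraries left out.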

Additional observations from a re-analysis of the deposited data

Results flagged for a closer look

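Dox moved 116 genes in opposite directions in siGcn5 and siControl, each with a called change in both arms and a called interaction, which is the test of the difference itself (limma, adjusted p under 0.05). Of these, 62 were higher with dox in siGcn5 and lower in siControl, and 54 the reverse. The count was 56 without siGcn5 no-dox 1, 67 without siControl no-dox 1 and 72 without siControl no-dox 2. Of 10 named genes of this kind, 5 kept all 3 calls without each of the 8 libraries in turn. A dox call in 1 arm ended without siGcn5 dox 1 or siGcn5 no-dox 2 for Prl2c4 and Prl2c3 (siGcn5), without siGcn5 dox 1 or siGcn5 no-dox 1 for Il11 (siGcn5), without any 1 of the 4 siControl libraries for Mlxip (siControl), and without siGcn5 dox 1, siGcn5 dox 2, siGcn5 no-dox 1, siControl dox 1 or siControl dox 2 for Lrrc15 (siGcn5). In these 10 genes, the interaction was negative for Mest at −3.25, for Mir335, which lies in Mest, at −3.22, for the cell cycle brake Rb1 at −1.61, and for the glucose sensor Mlxip at −0.60. It was positive for the near-identical prolactin family genes Prl2c4 and Prl2c3 at 3.22 and 3.21, for Col6a1 at 2.10, for the membrane protein gene Lrrc15 at 1.92, for the cytokine gene Il11 at 1.68, and for Krt20 at 1.59.

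Lrrc15 was at 1.55 and 1.702 RPKM with dox and 0.419 and 0.851 RPKM without dox in siGcn5. With siControl it stood at 2.47 and 2.77 RPKM with dox and 5.87 and 9.398 RPKM without dox. Its siControl libraries without dox stood above the other 6.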

How the results depend on the processing

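With 1 of the 8 libraries left out, the number of called interactions ran from 1677 to 3960, positive calls from 782 to 1826 and negative calls from 827 to 2134. A fit of the 8 siControl and siGcn5 libraries alone called 2853, and voom on recovered reads 3396, of which 3012 were among the 3409. A replicate block gave 5061 calls, 2147 positive and 2914 negative. With the block, negative calls numbered 21 for ribosomal proteins, 37 for core spliceosome genes, 19 for splicing regulators, 11 for nucleotide, 8 for p53, 6 for DNA replication and 6 for cholesterol genes, and positive calls 13 for AP-1 genes and 5 for p53 genes. For ribosome biogenesis genes the block gave 40 negative calls, against 28 in the main fit. Same-numbered libraries deviated together with correlations of 0.0933 to 0.489 over the pairs of groups, all above 0. Of 15 pairs 14 were above 0.1, and since 1 was not, the numbers were not taken to pair the libraries. Variation that same-numbered libraries share therefore stayed in the spread of the main fit, which called fewer genes than the block. With a mean of at least 5 RPKM, 3787 genes were called for dox in siMyc. With 1 library left out, 31 list medians moved by more than the spread between replicates and 177 did not; under the other alternatives, 29 moved and 204 did not. Of the named interactions, Klf4 ran from −0.048 without siGcn5 dox 2 to 0.376 without siGcn5 dox 1, and voom turned Slc47a1 to −1.88, Krt6b to 2.66 and Slurp1 to 0.059. Over 864 named values with 1 library left out, 685 kept direction and call, 174 lost the call, 4 gained it and 1 changed sign; over the other alternatives, 891 kept both, 57 lost the call, 5 gained it and 3 changed sign. Groups of 2 libraries limit the precision.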

Other observations

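Further gene groups were named after the interactions had been seen, so their counts are descriptions. The background for each of these groups in the main fit was 11.4% positive and 14.5% negative calls over all tested genes. Of 24 imprinted genes tested, 8 had a positive and 5 a negative interaction. The positive calls numbered 4 without siControl dox 2 or siControl no-dox 1, and the negative calls 1 without siGcn5 no-dox 1, siControl dox 1, siControl no-dox 1 or siControl no-dox 2. Igf2, the fetal growth factor, was at 63.6 and 48.5 RPKM with dox and 78.8 and 75.6 RPKM without dox in siGcn5. Control siRNA gave 73.7 and 64.7 RPKM with dox and 178 and 182 RPKM without dox; the siControl libraries without dox stood above the other 6, and the interaction was 0.90 (SE 0.20, adjusted p = 0.0109). Grb10, an adaptor that dampens insulin signalling, was at 126 and 103 RPKM with dox and 111 and 105 RPKM without dox in siGcn5. Libraries given siControl had 48.6 and 42.4 RPKM with dox and 79.9 and 73.8 RPKM without dox, with the siGcn5 libraries above siControl in both states and an interaction of 0.82 (SE 0.15, adjusted p = 0.00663). The noncoding RNA Rian had an interaction of 1.07 (adjusted p = 0.0107), and Igf2r, the receptor that clears Igf2, one of 0.61 (adjusted p = 0.00953).

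Of 21 pocket protein, E2F and G1 cyclin genes, 2 had a positive and 3 a negative interaction, shares near the 11.4% and 14.5% over all genes. Ccnd1, cyclin D1, was at 71.7 and 88.6 RPKM with dox and 14.3 and 18.8 RPKM without dox in siGcn5. Under siControl it had 165 and 155 RPKM with dox and 97.5 and 80.4 RPKM without dox. The siGcn5 libraries lay below siControl in both states, by more without dox on the log2 scale, and the interaction was 1.37 (SE 0.20, adjusted p = 0.00317). Rb1 had the opposite sign at −1.61 (adjusted p = 0.000257), and Ccnd2, cyclin D2, was at 0.66 (adjusted p = 0.00729).

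All 3 tested granzyme and mast cell protease genes had a positive interaction, although the Gzmd call ended without siGcn5 dox 1, siGcn5 no-dox 1, siControl dox 1, siControl dox 2 or siControl no-dox 2 (adjusted p = 0.0619 to 0.0889). Gzme was at 3.19 and 2.95 RPKM with dox and 4.33 and 6.15 RPKM without dox in siGcn5. In siControl it was at 3.65 and 2.72 RPKM with dox and 21.01 and 17.5 RPKM without dox, with siControl without dox far above the other 6 libraries and an interaction of 1.68 (SE 0.28, adjusted p = 0.00454). Of 11 interleukin 1 family genes, 3 had a positive and 2 a negative interaction. The positive calls numbered 1 without siControl dox 2 or siControl no-dox 2, and the negative calls 1 without siGcn5 no-dox 1, siControl dox 2, siControl no-dox 1 or siControl no-dox 2. Il1rn, the decoy ligand of the interleukin 1 receptor, was at 29.6 and 22.8 RPKM with dox and 32.6 and 43.3 RPKM without dox in siGcn5. Its siControl values were 1.77 and 2.23 RPKM with dox and 9.11 and 14.6 RPKM without dox, and its interaction was 1.55 (SE 0.33, adjusted p = 0.00947). Il1f10 was at 3.09 and 1.18 RPKM with dox and 8.88 and 6.35 RPKM without dox in siGcn5. The siControl libraries had 0.0279 and 0.0573 RPKM with dox and 0.0552 and 0.0619 RPKM without dox, with siGcn5 without dox above the other 6 libraries and an interaction of −1.49 (SE 0.33, adjusted p = 0.0117). At these siControl levels the + 1 in log2(RPKM + 1) limits the siControl dox response. The Il1f10 interaction thus mostly gives the dox change in siGcn5. Of 4 metallothionein genes, which encode metal buffers, 3 had a negative interaction. Mt1 was at 274 and 353 RPKM with dox and 328 and 405 RPKM without dox in siGcn5. Values in siControl were 217 and 243 RPKM with dox and 95.3 and 152 RPKM without dox; the siControl libraries without dox were the lowest, and the interaction of −1.16 (adjusted p = 0.0178) ended without siGcn5 dox 1, siGcn5 no-dox 2 or siControl dox 2 (adjusted p = 0.0515 to 0.0646). Mt2 was at −1.57 (adjusted p = 0.0165), and its call ended without siGcn5 dox 1, siControl dox 2 or siControl no-dox 1 (adjusted p = 0.0513 to 0.0603).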
